A study of Mus musculus with 8 samples.

Results

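The genes described here are the collagens, the laminin chains, the matrix metalloproteases and the tissue inhibitors of metalloproteases, measured by RNA sequencing in livers of ICR mice, an outbred strain. They were chosen by symbol alone (Col, Lama, Lamb, Lamc, Mmp or Timp followed by the chain or family number), which took 74 of the 24547 genes in the deposited table. Earlier results of these data were known when this set and the lists of other genes below were chosen. The treated group, 4 libraries, was given Psoraleae Fructus, a dried fruit used in Chinese medicine, as a high-dose decoction into the stomach for 30 days, and the control group, 4 libraries, is labelled as control, with saline as the comparison named in the protocol. No label names a genotype, sex, age, batch or amount per body weight. Whether each library is 1 animal is not stated either, so the p-values below measure the spread between these libraries, which may be technical. The series concerns liver damage by this preparation, and the question asked here is whether the genes that build and cut the liver matrix differed between the groups.

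Collagens are trimers of alpha chains. Types I, III and V form the fibrils that fill a liver scar, type IV forms the sheet of basement membranes, type VI forms beaded filaments, and the multiplexins, types XV and XVIII, sit in basement membrane zones and release fragments such as endostatin. Laminins are heterotrimers of an alpha, a beta and a gamma chain that bind type IV collagen networks to cell surface receptors. Metalloproteases cut these proteins and the tissue inhibitors block them. In liver the fibrillar collagens come chiefly from stellate cells and portal fibroblasts, the sinusoidal wall holds little classical basement membrane, and hepatocytes themselves make type XVIII collagen.

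The libraries held between 15864399 and 20159132 counts. Of the 74 genes, 72 had at least 1 count and 42 were counted well enough to test. CPM is a count scaled to the library's total. It was used unadjusted in the filter, while the CPM values given below are adjusted by TMM normalisation factors. The filter asked for at least 0.574 CPM in at least 4 libraries. Every tested gene reached that level in at least 1 library of each group, though some reached it in all 4 libraries of only 1 group. Col11a2, for example, reached it in 2 controls and 4 treated libraries. The tested genes were low: their median was 3.91 CPM, against 14.7 CPM over all 12861 tested genes, and 30 of the 42 lay below 1 FPKM (the deposited level, scaled to gene length and library total). Markers of hepatocytes summed to between 126100 and 189500 CPM per library, led by Alb, which encodes albumin. No listed hepatocyte, stellate, sinusoidal endothelial, macrophage or cholangiocyte marker was at 0 in every library.

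Short stretches of promoter sequence are shown for the genes on which the results below turn, taken from RefSeq on GRCm38.p6. Col4a1 and Col4a2, the chains of the common type IV trimer, lie head to head on chromosome 8 (11198423 to 11312826 on the minus strand and 11312805 to 11449287 on the plus strand). Their exons overlap by 22 bases at the starts. The forward strand at chr8:11312801-11312830 is given, with the bases held by both transcripts in capitals. For Mmp15 (plus strand, chr8:95352046-95352267) and Col18a1 (minus strand, chr10:77166549-77166780) the bases before the outermost annotated exon are given. In these, capitals mark matches, on either strand, to the CCAAT box, to the GC box written GGGCGG, and to the TATA box written TATAAA; no matches overlap here.
Col4a1 and Col4a2: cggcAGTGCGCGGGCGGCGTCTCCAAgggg
Mmp15: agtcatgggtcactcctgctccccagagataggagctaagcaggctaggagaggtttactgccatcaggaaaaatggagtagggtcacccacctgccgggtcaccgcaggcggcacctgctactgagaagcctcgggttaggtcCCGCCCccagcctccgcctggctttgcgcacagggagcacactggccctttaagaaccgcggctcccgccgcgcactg
Col18a1: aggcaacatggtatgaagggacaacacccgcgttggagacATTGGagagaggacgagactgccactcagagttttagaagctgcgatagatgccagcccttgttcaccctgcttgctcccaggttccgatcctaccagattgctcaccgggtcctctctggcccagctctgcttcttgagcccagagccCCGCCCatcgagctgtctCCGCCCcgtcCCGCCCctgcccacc
The stretch before Mmp15 holds 1 match to GGGCGG and none to the other motifs. The stretch before Col18a1 holds 3 matches to GGGCGG and 1 to CCAAT. Of the 62 RefSeq promoter windows of 300 bases that matched 56 of the 74 genes, 58.1% held the GC box, 32.3% the CCAAT box and 17.7% the TATA box. Over all 32851 windows the shares were 35.7%, 37.4% and 13.6%. A match describes letters only. RefSeq lists a further start of Col18a1 within the gene, and a count per gene does not separate the transcripts from different starts.

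None of the 42 tested genes differed between the groups at the threshold. With edgeR's quasi-likelihood test and Benjamini-Hochberg adjustment over all genes, 0 of 42 were called at an adjusted p under 0.05, where the call was made for 9.21% of all 12861 tested genes (5.46% higher in treated libraries, 3.75% lower). At an unadjusted p under 0.05 the count was 6 of 42, or 14.3%, against 29.4% of all tested genes. The CPM values of the groups did not overlap for 2 of 42, or 4.76%, both lower in treated libraries, against 18.9% of all tested genes. As many genes had a positive as a negative log2 fold change (21 each), and their median was -0.005 against -0.037 over all tested genes. DESeq2's Wald test called 4 of the 42, Col4a1, Col4a2 and Col5a2 lower and Mmp15 higher, where it called 17.2% of all tested genes. limma on log2(FPKM + 1) called 0 of the 21 genes it could test, with 4 at an unadjusted p under 0.05, where it called 7.49% of all 11403 genes it tested.

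**Figure D1:**
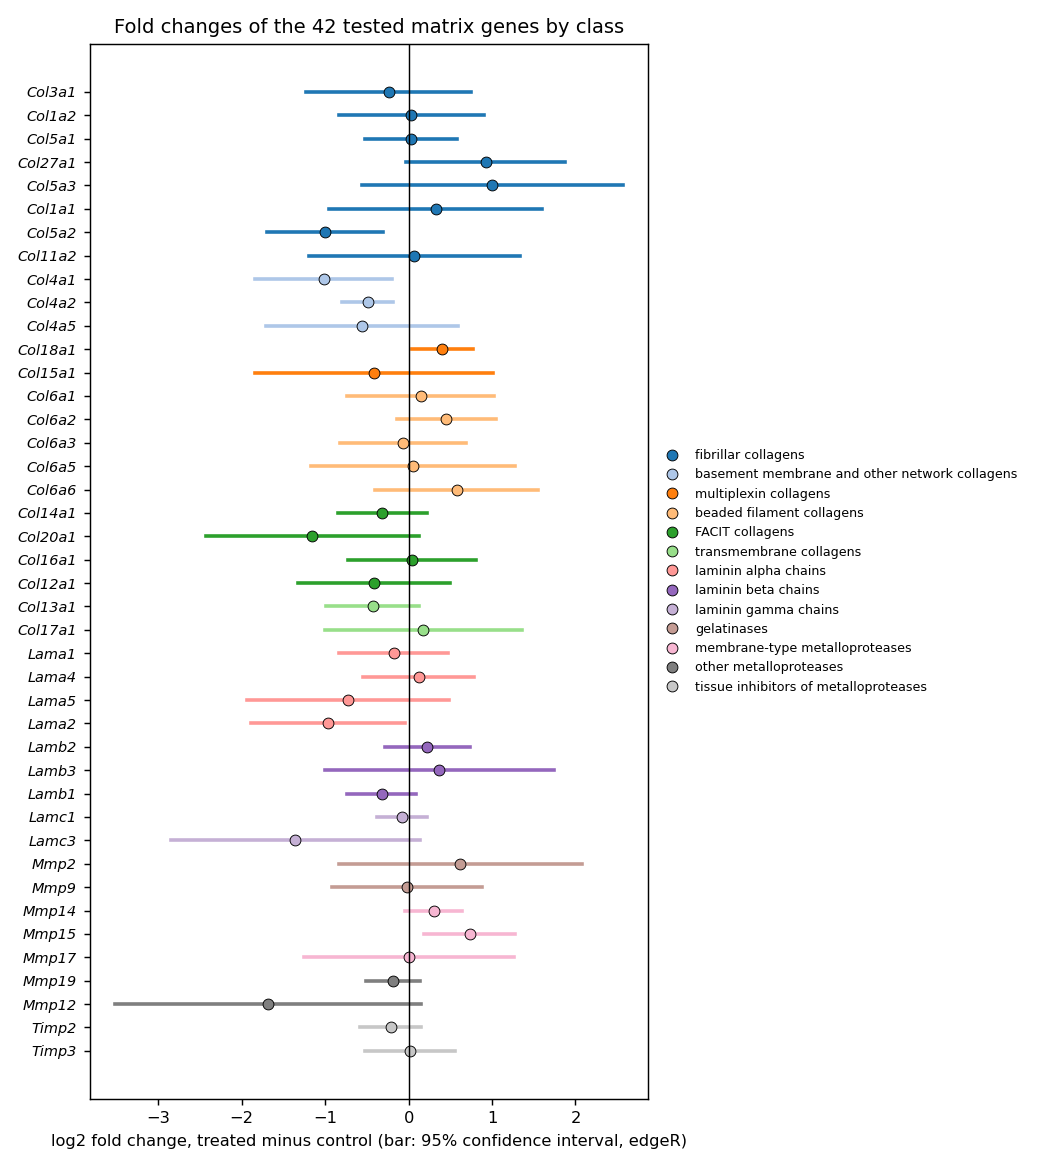
Log2 fold change (treated minus control, x axis) of the 42 tested genes (y axis), grouped and coloured by class, with bars for the 95% confidence interval from edgeR. The intervals of 6 genes leave out 0, those of Col4a1, Col4a2, Col5a2 and Lama2 on the lower side and those of Mmp15 and Col18a1 on the higher side, and none of the 6 passed the adjustment over all genes.

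A missed threshold does not show that the groups were alike, since many of these genes were measured loosely. The 95% interval of the fold change lay within 2-fold in either direction for 18 of the 42 and within 1.5-fold for 5. The standard error of the log2 fold change ran from 0.14 for Lamc1 to 0.81 for Mmp12, with a median of 0.39.

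**Figure D2:**
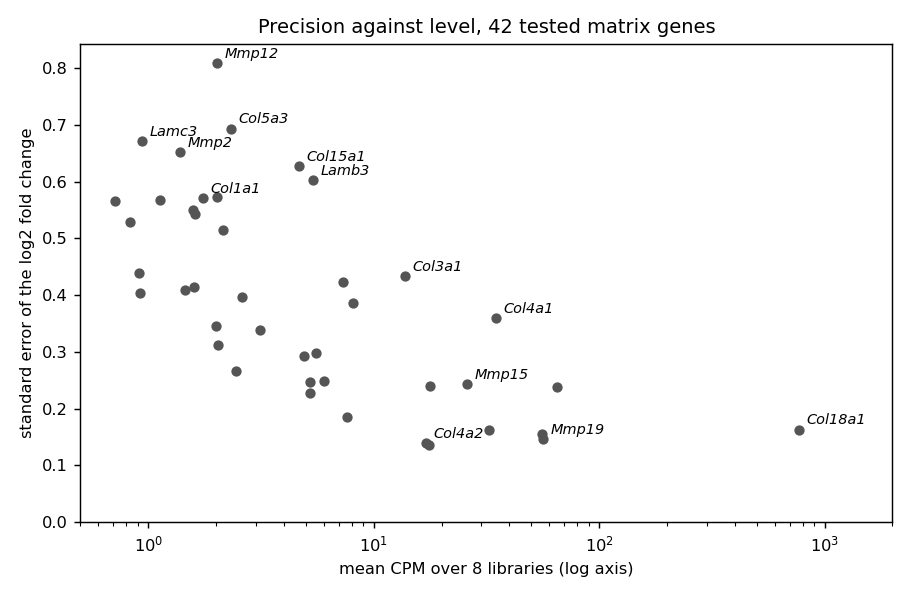
Standard error of the log2 fold change (y axis) against the mean CPM over 8 libraries (log x axis) for the 42 tested genes, 1 point per gene. Genes above 10 CPM have standard errors of 0.43 or less, while the largest, 0.81, belongs to Mmp12 at a mean near 2.02 CPM.

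By level, Col18a1 stood far above the others. It accounted for 59.2% of the summed FPKM of all 74 genes, at 86.3 to 107 FPKM in controls and 104 to 132 in treated libraries. The next were Mmp19, Mmp14, Col14a1 and Timp2, with means over 8 libraries from 8.34 to 16.0 FPKM. The ranges of Mmp14, Col14a1 and Timp2 over the 8 libraries overlapped each other, and the lowest value of Mmp19, 12.7 FPKM, lay under the highest of Col14a1, 13.1. Mmp15, Col4a1, Col4a2, Timp3, Lamc1, Col3a1 and Col13a1 followed, the last at 1.31 FPKM. The 12 genes above 1 FPKM were the same in both groups, and Col18a1, Mmp19, Col3a1 and Col13a1 held the same rank in both. The classical scar collagens were low in every library, with Col1a1 at 0.0692 to 0.539 FPKM and Col1a2 at 0.320 to 1.02.

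**Figure D3:**
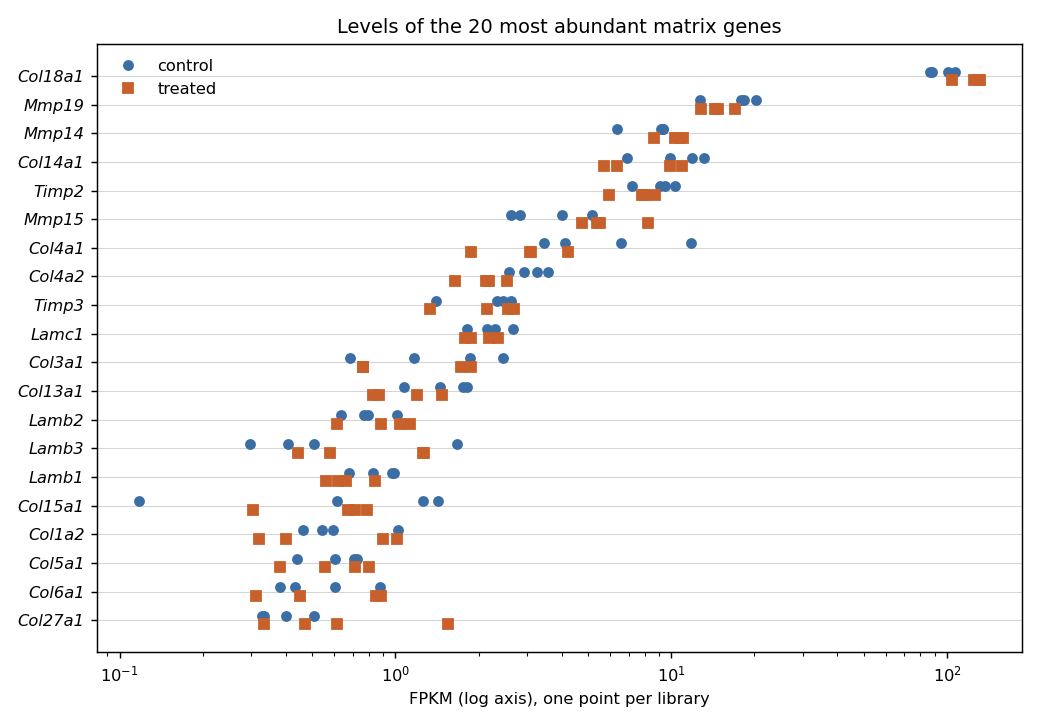
FPKM (log x axis) of the 20 most abundant genes of the set (y axis), with circles for the 4 control and squares for the 4 treated libraries. Col18a1 lies between 86.3 and 132 FPKM in every library, and of the genes shown Col4a2 is the only gene whose groups do not overlap.

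Of the 6 type IV chains 3 were tested, Col4a1, Col4a2 and Col4a5, each with a negative log2 fold change and none past the adjusted test. Col4a2, the alpha 2 chain, stood at 20.19, 21.3, 21.5 and 17.2 CPM in controls 1 to 4 and at 14.3, 16.1, 11.7 and 14.9 CPM in treated libraries 1 to 4. Every treated value lay under every control value. The log2 fold change was -0.49 (SE 0.14, 95% interval -0.80 to -0.18, edgeR adjusted p = 0.0534). This gene sat at the threshold. It was called with an offset for gene length and GC (log2 -0.73, edgeR adjusted p = 0.0184) and with a stricter count filter (edgeR adjusted p = 0.0474). It was also called without control 4 (log2 -0.56, edgeR adjusted p = 0.0253) and by DESeq2 (adjusted p = 0.0173). A block on replicate number together with that length and GC offset called it too (edgeR adjusted p = 0.0436). It was not called with scaling by library size alone (edgeR adjusted p = 0.0740), DESeq2 size factors (0.052) or no low-count filter (0.0891). The replicate block alone (edgeR adjusted p = 0.0819) and leaving out controls 2 and 4 (0.0688) did not call it. Nor did limma on log2(FPKM + 1) (adjusted p = 0.0802) or on log2(FPKM + 0.1) (adjusted p = 0.0788). Of the 8 leave-one-out fits 1 called it, with edgeR adjusted p-values up to 0.144.

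Col4a1, the alpha 1 chain, stood at 32.2, 79.6, 49.0 and 26.0 CPM in controls and at 23.3, 30.4, 14.99 and 23.5 CPM in treated libraries. Control 2 was highest, and treated library 2 lay above control 4, so the groups overlapped. The log2 fold change was -1.02 (SE 0.36, edgeR adjusted p = 0.107). It was -0.62 without control 2 (adjusted p = 0.205) and -1.21 without control 4, where it was called (adjusted p = 0.0422). The FPKM of Col4a1 divided by that of Col4a2 was 1.41, 3.31, 2.02 and 1.34 in controls and 1.45, 1.67, 1.14 and 1.40 in treated libraries, so the chains of this shared start did not keep a fixed ratio, and control 2 stood highest. The exons of the pair share 22 bases on opposite strands, 0.295% of the exon length of Col4a1 and 0.332% of that of Col4a2, and the reads there were not measured separately.

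Col4a5, an X-linked type IV chain, ran from 0.983 to 3.96 CPM in controls and from 0.789 to 2.63 in treated libraries (log2 -0.56, SE 0.51). Its head-to-head neighbour Col4a6 had 6 counts over all 8 libraries. Col4a3 and Col4a4, a head-to-head pair on chromosome 1 known from kidney and lung, had 47 and 48 counts in all and were not tested, and Col8a1, Col8a2 and Col10a1 were also below the filter. Sinusoidal endothelial cells and stellate cells are known sources of type IV collagen. The 20 genes listed as sinusoidal endothelial markers, all tested, summed to 823 to 1082 CPM in controls and to 577 to 839 in treated libraries. Of them 2 fell, Pecam1, an adhesion molecule (40.6 ± 7.13 to 22.4 ± 5.45 CPM, log2 -0.86, SE 0.19, edgeR adjusted p = 0.0273), and Tek, the angiopoietin receptor (log2 -0.81, SE 0.22, adjusted p = 0.0499). Over all tested genes 3.75% were called lower. Pecam1 was called in 3 and Tek in 1 of the 8 leave-one-out fits. With the length and GC offset Pecam1 was called (log2 -0.78, edgeR adjusted p = 0.0394) and Tek was not (log2 -0.70, adjusted p = 0.0975). Of the same list, Stab2 (log2 -0.30), Stab1 (-0.23), Gpr182 (-0.22), Clec4g (-0.15) and Oit3 (-0.10) were not called (edgeR adjusted p = 0.328 to 0.793). Tie1, Vwf and Emcn had positive log2 fold changes. The median over the 20 was -0.235. Their part in the type IV values was not tested, and in these bulk samples fewer cells of a type and less RNA per cell cannot be told apart.

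**Figure D4:**
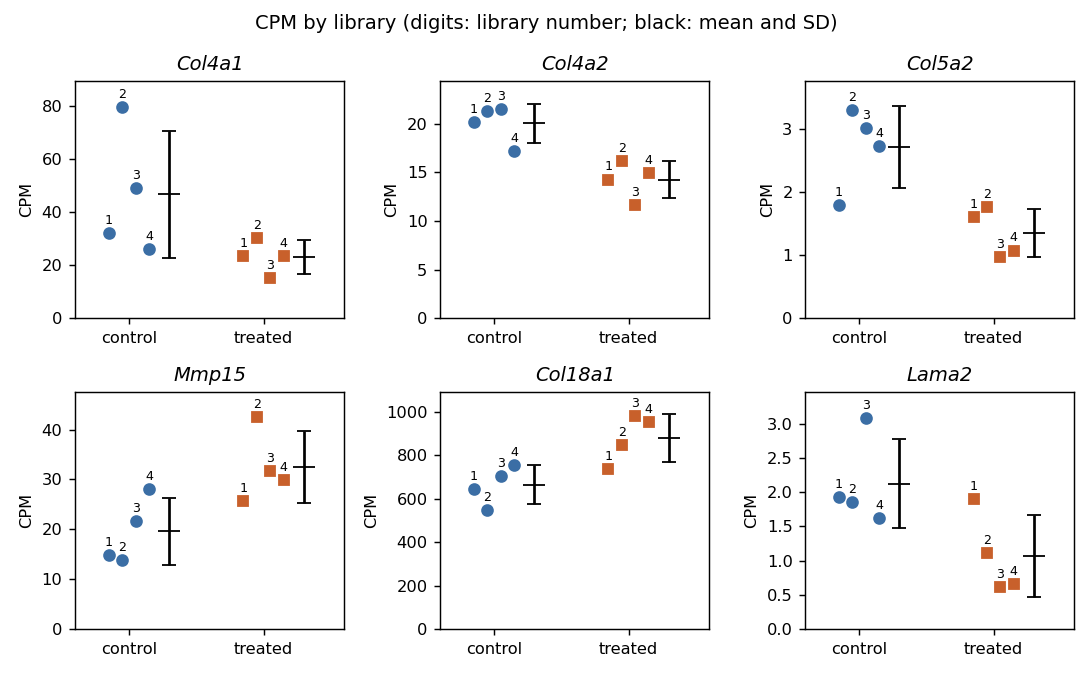
CPM by library for the 6 genes with an unadjusted p under 0.05, with circles for controls, squares for treated libraries, digits for the library number, and black marks for the mean and SD (n = 4 per group). Col4a2 and Col5a2 show no overlap between the groups, while Col4a1, Mmp15, Col18a1 and Lama2 overlap.

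Col18a1, the multiplexin from which endostatin is cut, stood at 647, 548, 706 and 756 CPM in controls and at 738, 847, 981 and 953 CPM in treated libraries. Only treated library 1 and control 4 overlapped. The log2 fold change was 0.40 (SE 0.16, 95% interval 0.04 to 0.77, edgeR adjusted p = 0.136). With the length and GC offset it was 0.15 (adjusted p = 0.641), so the size of this difference rests on that choice. Col15a1, the related multiplexin, spread from 0.781 to 9.08 CPM within the controls and from 1.95 to 5.14 in treated libraries (log2 -0.42, SE 0.63).

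The fibrillar collagens gave 1 gene with an unadjusted p under 0.05 among 8 tested of 10. Col5a2, a chain of the type V collagen that nucleates fibrils, stood at 1.80, 3.31, 3.02 and 2.73 CPM in controls and at 1.6, 1.76, 0.971 and 1.075 CPM in treated libraries. The groups did not overlap, though control 1 and treated library 2 differed by little. The values rest on 16 to 64 counts per library. The log2 fold change was -1.0005 (SE 0.31, edgeR adjusted p = 0.0723), and it was called in none of the 8 leave-one-out fits. Col5a1, the partner chain in the type V trimer, did not follow: it ran from 3.91 to 6.04 CPM in controls and from 3.35 to 6.85 in treated libraries (log2 0.03, SE 0.25).

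Col1a1, Col1a2 and Col3a1, the main chains of scar fibrils, differed more between libraries of a group than between the groups. Col1a1 had 12, 37, 38 and 23 counts in controls and 54, 58, 8 and 20 in treated libraries. Col1a2 stood at 6.01, 6.10, 12.6 and 7.40 CPM in controls and at 11.3, 12.1, 4.25 and 5.14 CPM in treated libraries. Col3a1 stood at 7.03, 10.3, 24.0 and 18.4 CPM in controls and at 17.2, 17.8, 8.01 and 7.71 CPM in treated libraries. In each of these genes treated libraries 1 and 2 lay above treated libraries 3 and 4, and control 3 was the highest control. The log2 fold changes were 0.33 (SE 0.57), 0.03 (SE 0.39) and -0.24 (SE 0.43), with edgeR adjusted p-values from 0.741 to 0.966. The 95% interval of Col1a2 ran from 0.560-fold to 1.87-fold and that of Col1a1 from 0.518-fold to 3.03-fold.

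Of the other fibrillar chains, Col27a1, known from cartilage, was highest in treated library 2 at 19.4 CPM, with the other treated libraries at 4.48 to 8.05 and controls at 3.93 to 6.61 (log2 0.93, SE 0.42, edgeR adjusted p = 0.181). Its value without treated library 2 was 0.35. Col5a3 had the highest positive log2 fold change of the set, 1.0044, with a standard error of 0.69 and overlapping groups. Col11a1 had no count in any library and Col24a1 had 37 in all.

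Type VI collagen, the beaded filament around many cell types, gave 5 tested genes of 6 with log2 fold changes from -0.07 to 0.58. Col6a1, Col6a2 and Col6a3, its main chains, stood at 0.14 (SE 0.40), 0.45 (SE 0.27) and -0.07 (SE 0.34). The fibril-associated collagens were led by Col14a1, which associates with fibril surfaces. Col14a1 stood at 50.5, 62.8, 83.1 and 92.3 CPM in controls and at 69.9, 73.7, 47.5 and 41.2 CPM in treated libraries. Again treated libraries 1 and 2 lay above 3 and 4, and the groups overlapped (log2 -0.31, SE 0.24, edgeR adjusted p = 0.410). Col20a1 was at 0.892 to 4.28 CPM in controls and 0.550 to 2.58 in treated libraries (log2 -1.15, SE 0.57). Col13a1, a transmembrane collagen of cell contacts, ran from 4.99 to 8.71 CPM in controls and from 3.87 to 6.99 in treated libraries (log2 -0.43, SE 0.25, edgeR adjusted p = 0.275).

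Of 11 laminin chains 9 were tested, 3 of them with positive and 6 with negative log2 fold changes. Lamc1, the gamma 1 chain found in most laminins, was the steadiest gene of the set, at 18.6, 19.96, 14.96 and 19.2 CPM in controls and at 19.6, 17.4, 16.6 and 15.2 CPM in treated libraries. Its log2 fold change was -0.08, with a 95% interval from -0.38 to 0.22. Lamb1 and Lamb2, beta chains that pair with it, stood at -0.32 (SE 0.19) and 0.22 (SE 0.23). Lama2, the alpha chain known from muscle and nerve basement membranes, was at 1.92, 1.86, 3.08 and 1.63 CPM in controls and at 1.90, 1.11, 0.607 and 0.657 CPM in treated libraries. Treated library 1 lay among the controls and the other treated libraries lay under them (log2 -0.97, SE 0.41, edgeR adjusted p = 0.154). It rested on 10 to 49 counts per library. Lamc3 was lower on the mean (log2 -1.36, SE 0.67, adjusted p = 0.211), with 2 and 3 counts in treated libraries 4 and 3. Lama1, Lama4 and Lama5 stood at -0.18, 0.12 and -0.72, each with a 95% interval that held 0, and Lama3 was not tested.

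Of the 6 membrane-type metalloproteases 3 were tested, Mmp14, Mmp15 and Mmp17, and none was called. Mmp15, a membrane-type metalloprotease, stood at 14.8, 13.8, 21.6 and 28.0 CPM in controls and at 25.8, 42.6, 31.7 and 29.9 CPM in treated libraries. Control 4 was the only control above a treated library. The log2 fold change was 0.73 (SE 0.24, 95% interval 0.19 to 1.28, edgeR adjusted p = 0.0882). Without control 4 it was 0.96 and called (adjusted p = 0.0175), and DESeq2 called it with all libraries (adjusted p = 0.0404). With the length and GC offset it was 0.50 (adjusted p = 0.265). Mmp14, a membrane-bound collagenase that activates pro-MMP2, ran from 38.1 to 57.9 CPM in controls and from 49.5 to 67.7 in treated libraries (log2 0.30, SE 0.15, edgeR adjusted p = 0.228). The summed FPKM of the 6 membrane-type genes was 11.6 to 13.3 in controls and 15.7 to 16.9 in treated libraries. This sum was singled out after the values were seen, as the only 1 of the 16 class sums whose groups did not overlap.

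Mmp19, the most abundant protease of the set, stood at 46.8, 57.0, 64.9 and 72.1 CPM in controls and at 45.7, 58.0, 54.3 and 53.5 CPM in treated libraries. The treated values lay within or just below the control range (log2 -0.19, SE 0.15, edgeR adjusted p = 0.423). Exons of Tmem198b, on the opposite strand, cover 22.3% of its exon length, so its count is uncertain with a kit that does not mark strand. The gelatinases Mmp2 and Mmp9, which cut denatured and type IV collagen, were low. Mmp2 ran from 0.103 to 1.89 CPM in controls and from 0.729 to 2.17 in treated libraries, and Mmp9 from 0.661 to 1.31 and from 0.550 to 1.34. Their log2 fold changes were 0.62 (SE 0.65) and -0.01 (SE 0.40).

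Mmp12, the macrophage elastase, stood at 2.46, 8.02, 1.45 and 0.472 CPM in controls and at 1.95, 0.763, 0.546 and 0.538 CPM in treated libraries. Control 2 was highest by far and control 4 was the lowest of all 8. The log2 fold change was -1.69 (SE 0.81, edgeR adjusted p = 0.203), and without control 2 it was -0.58. Summed macrophage markers came to 1720 CPM in control 2, while the remaining controls held 696 to 1203 CPM and the treated libraries 475 to 914. Of 16 tested genes listed as macrophage markers 4 fell, Ptprc, Ccr2, Timd4 and Adgre1 (edgeR adjusted p = 0.0270 to 0.0473). Vsig4, Cd68, Clec4f, Marco and Cd5l of the same list were lower on the mean and not called (edgeR adjusted p = 0.0708 to 0.317). Itgam had a positive log2 fold change (0.16). Over all tested genes 3.75% were called lower, and the median log2 fold change of the 16 markers was -0.909. With the length and GC offset none of these 4 was called (edgeR adjusted p = 0.0706 to 0.107), at log2 fold changes of -1.06 for Adgre1, -1.41 for Timd4, -1.20 for Ccr2 and -0.86 for Ptprc, against -1.14, -1.48, -1.53 and -1.26 without it. Csf1r, the receptor for a macrophage growth factor, was called with the offset (log2 -1.05, adjusted p = 0.0491) and missed the threshold without it (-1.02, adjusted p = 0.0512). Adgre1 and Timd4 were each called in 1 of 8 leave-one-out fits, Ptprc and Ccr2 in 3. Their part in the Mmp12 values was not tested. On chromosome 9, 7272514 to 7699585, Mmp12 lies in a cluster with Mmp13, Mmp3, Mmp8, Mmp27 and Mmp7, of which Mmp12 alone was counted well enough to test. Mmp13 and Mmp8, grouped here as collagenases in a class that leaves out the membrane-bound Mmp14, had 47 and 53 counts over all libraries. Mmp3 had 2.

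The inhibitors were represented by Timp2 and Timp3. Timp2, which also takes part in the activation of pro-MMP2, stood at 42.1, 25.3, 35.5 and 37.1 CPM in controls and at 30.9, 32.8, 24.8 and 32.1 CPM in treated libraries (log2 -0.21, SE 0.16, edgeR adjusted p = 0.407). Timp3, the matrix-bound inhibitor, stood at 20.8, 17.2, 11.4 and 21.5 CPM in controls and at 22.1, 20.1, 11.7 and 18.0 CPM in treated libraries. The groups covered the same range (log2 0.02, SE 0.24), though exons of Syn3 on the opposite strand cover 21.3% of those of Timp3. Timp1, the inhibitor known to be induced in injured liver, had 2, 12, 5 and 2 counts in controls and 5, 3, 1 and 2 in treated libraries, which was below the filter. Timp4 had 1 count in all.

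Across the set, libraries of the same group stood apart from each other. Treated library 3 held the lowest of the 8 values for 14 of the 42 genes, and the median deviation from the gene mean there was -0.413 on the log2 scale. Control 3 held the highest value for 11 of 42, with a median deviation of 0.306. Treated libraries 1 and 2 lay above the gene means (0.263 and 0.154) and treated library 4 below (-0.155). Over all 12861 tested genes the same medians stayed within -0.005 to 0.019. TMM scaling holds such medians near 0, so they do not show whether other gene sets shift likewise. The counts of lowest and highest values were not made over all tested genes, so they are not read as a trait of this set. The medians of the 8 fibrillar collagens ran from -0.523 in treated library 4 to 0.701 in control 3.

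**Figure D5:**
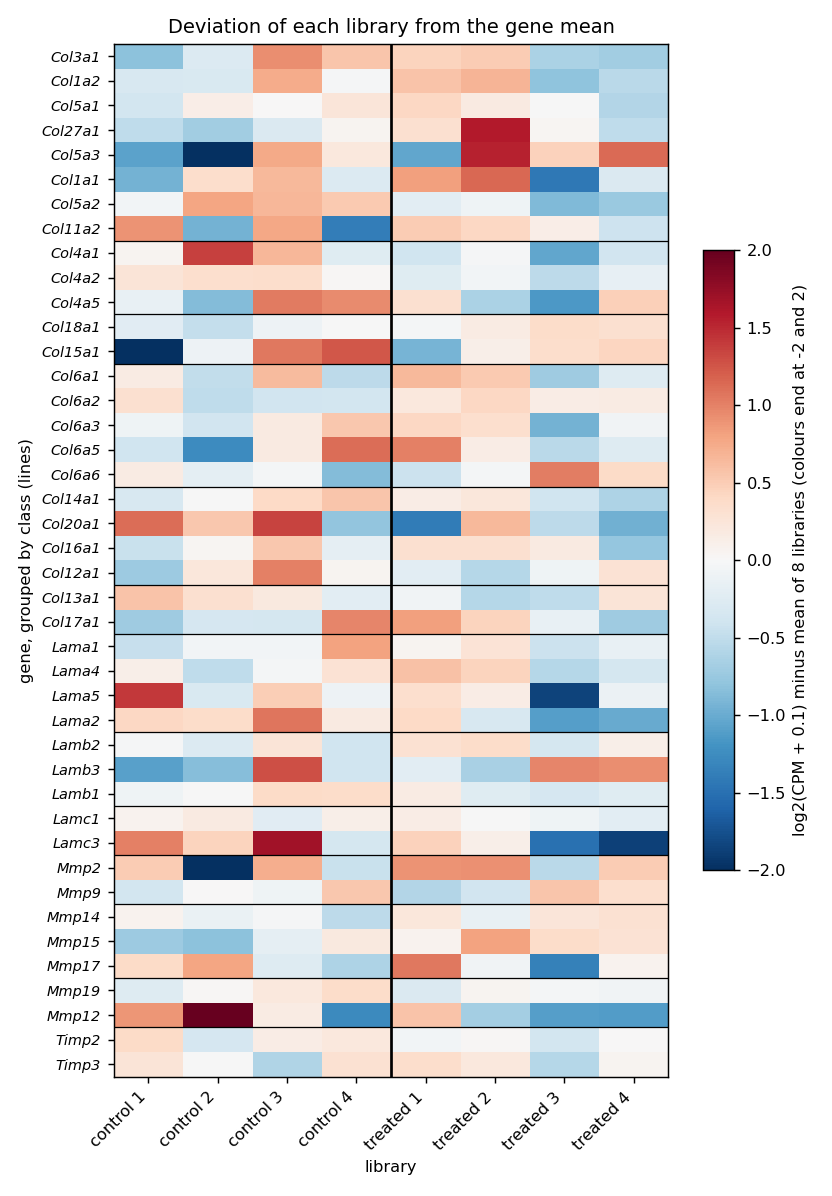
Deviation of each library from the mean of 8 libraries on the log2(CPM + 0.1) scale (colour, ends at -2 and 2), for the 42 tested genes (rows, grouped by class) in 8 libraries (columns). Treated library 3 is low across many collagens and laminins, with a median of -0.413, while treated libraries 1 and 2 are mostly above the gene means.

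The rest of the matrix machinery was described by lists of genes chosen by function, with earlier results of these data known. The counts for these lists and for the cell type lists below stand beside shares over all tested genes. Those shares were 5.46% called higher and 3.75% called lower by edgeR. Of 23 tested enzymes that modify and crosslink collagen, 0 rose and 1 fell, Colgalt2, a collagen galactosyltransferase (5.86 ± 3.01 to 1.13 ± 0.28 CPM, log2 -2.37, SE 0.45, edgeR adjusted p = 0.0153). The median log2 fold change of this list was -0.052. Of 31 other matrix glycoproteins and proteoglycans 1 fell, Bgn, which encodes biglycan (137 ± 13.5 to 89.1 ± 6.45 CPM, log2 -0.62, SE 0.12, adjusted p = 0.0151), with a median of -0.096. Of 21 other matrix proteases and inhibitors 1 fell, Hpse, the heparanase (log2 -0.82, SE 0.19, adjusted p = 0.0285), with a median of -0.397. Leaving out each library in turn, Colgalt2 was called in 6, Bgn in 7 and Hpse in 2 of 8 fits.

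Of 20 tested receptors for collagen and laminin 2 fell, the integrin alpha chains Itga9 (36.7 ± 1.78 to 24.2 ± 3.66 CPM, edgeR adjusted p = 0.0228) and Itga1, a collagen-binding chain (49.2 ± 4.76 to 34.0 ± 4.79 CPM, adjusted p = 0.0339). Their leave-one-out calls were 4 and 3 of 8, and with the length and GC offset Itga1 was not called (log2 -0.22, without it -0.53). Of 17 genes of the TGF-beta pathway, which drives collagen transcription in stellate cells, Smad7, an inhibitory Smad, rose (9.97 ± 1.58 CPM in controls, 21.4 ± 6.15 in treated libraries). Its log2 fold change was 1.10 (SE 0.23, edgeR adjusted p = 0.0223, called in 4 of 8 leave-one-out fits). Skil, a repressor of Smad signalling, fell (30.2 ± 9.99 CPM in controls, 13.6 ± 2.57 in treated libraries). Its log2 fold change was -1.15 (SE 0.26, edgeR adjusted p = 0.0288), it was called in 1 leave-one-out fit, and with the offset it was not called (log2 -0.83, adjusted p = 0.0891). The medians of these lists were -0.123 and -0.166.

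Of 18 tested stellate cell and myofibroblast markers 0 rose and 1 fell, Pdgfra, the PDGF receptor alpha (15.6 ± 2.59 to 7.04 ± 0.71 CPM, log2 -1.14, SE 0.16, edgeR adjusted p = 0.00667), which stayed called in all 8 leave-one-out fits. The summed level of the 20 listed markers was 755 to 904 CPM in controls and 816 to 828 in treated libraries, with Tagln and Gfap at 0 in some libraries. The most abundant of them, Cxcl12, a chemokine, stood at 250 to 391 CPM in controls and at 369 to 431 in treated libraries. Its means were 313 and 405 CPM (log2 0.37, edgeR adjusted p = 0.149). Cxcl12 was a large part of that sum, so the sum does not describe the other markers taken alone. The median log2 fold change over the 18 was -0.113. The groups did not overlap for 3 of the 18, Pdgfra, Pdgfrb (log2 -0.80) and Des (log2 -0.40), all lower in treated libraries. Over all tested genes the groups did not overlap for 18.9%, and 3 of 18 lay near that share. Other markers had positive log2 fold changes, among them Hand2 (0.53), Myl9 (0.48) and Acta2 (0.37), with overlapping groups and none called. The cholangiocyte markers, of which 5 of 12 were tested and none was called, included Spp1, which encodes osteopontin, at 19.2 ± 3.65 CPM in controls and 16.3 ± 8.19 in treated libraries. Their summed level was 38.4 to 48.9 CPM in controls and 33.0 to 50.8 in treated libraries. Among 5 tested erythroid and mesothelial markers none was called, with Hbb-bs at 121 ± 59.4 and 186 ± 21.0 CPM and Hba-a1 at 101 and 134 (means). The part of these cell types in the collagen values was not tested.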

How the data were processed

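The deposited table gives, per the file headers, raw read counts per gene and FPKM for 8 liver libraries, 4 treated and 4 control. Trizol extraction, poly-T bead selection and a library kit that does not mark strand are named per the labels' protocols. The build GRCm38 and the tools DESeq2 1.32.0, HTSeq 0.13.5 and HISAT2 stand, without roles, in the list taken per the submitters' processing notes. Annotation release and strand setting: not given in the sources used here. The deposited FPKM equals the count divided by a gene length and the library total. That length equalled the GENCODE vM21 exon union for 70 of the 72 genes of the set with a count, and gene positions come from that annotation.

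edgeR 4.0.16 (R 4.3.3) was run on the counts of all genes: filterByExpr (minimum count 10, minimum total 15), TMM factors, robust quasi-likelihood F test of treated against control, Benjamini-Hochberg adjustment over 12861 genes, called at 0.05. A log2 fold change is treated minus control, and its SE was derived from the F statistic. Errors are SDs. The pipeline was tested on simulated counts. No library pair held near-identical counts (chi-square per degree of freedom at least 32.1). The members and the lists were chosen with earlier results of these data known. Named genes are those with an unadjusted p under 0.05, the 12 most abundant, and those with a library standing apart. Genes at the edge of the filter by mean CPM are named too. Per list, up to 4 called genes or, with none, the 2 most abundant are named. Other genes are given to describe their class and were picked after their values were seen. Some genes that the rule or a class would name are not reported here. Alternatives were DESeq2 size factors, library size alone, no filter, a minimum count of 50, DESeq2 1.42.0, limma 3.58.1 (genes averaging 0.5 FPKM or more, log2 scale, pseudocount 1 or 0.1), a replicate block, a per-library smooth offset on gene length and GC content (mgcv 1.9.3), both together, leaving out each library and leaving out controls 2 and 4.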

Additional observations from a re-analysis of the deposited data

Results flagged for a closer look

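In 6 of the 84 groups of 4 libraries checked (42 genes, both groups), 1 library stood apart from the others by more than Dixon's critical value of 0.829, where chance gives about 1 in 20. Lamb3, the beta 3 laminin chain, was at 11 CPM in control 3 against 2.04 to 3.36 in the other controls. Lamb1 was at 8.45 CPM in treated library 1 against 5.95 to 6.34 in the other treated libraries. Col16a1 was at 1.075 CPM in treated library 4 against 2.19 to 2.41. Col6a2 was at 3.01 CPM in control 1 against 1.66 to 1.84 in the other controls. Mmp12 was at 1.95 CPM in treated library 1 against 0.538 to 0.763. Col17a1, a hemidesmosome collagen, was at 1.58 CPM in control 4 against 0.421 to 0.569 in the other controls.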

How the results depend on the processing

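The count of called genes of the set, 0 by edgeR with all libraries, was also 0 with DESeq2 size factors (9.25% of all genes tested were called), library size alone (7.74%), no low-count filter (72 genes of the set tested, 4.66%), limma on log2(FPKM + 1) and log2(FPKM + 0.1) (7.49% and 7.74%), the replicate block (7.34%), and without both of controls 2 and 4 (8.07%). It was 1 of 22 with the stricter filter (11.5%), 1 with the length and GC offset (4.46%), 1 with the replicate block together with that offset (4.01%), and 4 by DESeq2 (17.2%). With 1 library left out it ran from 0 to 3, the 3 (Col4a1, Col4a2 and Mmp15) coming without control 4 (17.8%). Over all genes the 1184 calls became 573 with the offset, 516 with block and offset, 2213 by DESeq2, and 183 (without treated library 3) to 2330 (without control 4). Same-numbered libraries of the groups correlated by 0.177, 0.059, -0.012 and 0.07, and control 2 correlated best with treated library 1, so the numbers were not taken as pairs.

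Of the 42 tested genes, 12 turned sign in at least 1 setting with all libraries or without controls 2 and 4, 15 with 1 library left out, and 18 in either; none of the 18 had an unadjusted p under 0.05. Among the genes chosen by the naming rule these were Timp3 (-0.0135 with library size alone, -0.0127 and -0.0205 by limma), Mmp17 (-0.0473 with library size alone, -0.10 with the replicate block, -0.0335 with the offset, -0.16 with the replicate block and the offset), Col16a1 (-0.0029 with library size alone, -0.25 with the offset, -0.25 with the replicate block and the offset, -0.0526 without controls 2 and 4), Lamc1 (0.044) and Lamb3 (-0.10), the last 2 without controls 2 and 4. With 1 library left out the values of such genes ran from -0.12 to 0.77 for Col17a1, from -0.09 to 0.27 for Col16a1, from -0.14 to 0.18 for Timp3, from -0.47 to 0.087 for Col3a1 and from -0.56 to 0.34 for Mmp17. The cause was not tested. A standard error above 0.5 was found for 14 of the 42. Of genes with similar counts, Lamb3 (736 in all) had a standard error of 0.60 and Lamb2 (737) of 0.23.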

Other observations

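Of the 32 genes of the set below the filter, Col23a1, a transmembrane collagen, came nearest to it at a mean of 0.678 CPM, with 4, 10, 8 and 9 counts in controls and 18, 23, 7 and 17 in treated libraries. Mmp27 and Lama3 followed, at 0.564 and 0.501 CPM. Just inside the filter were Mmp17, Col17a1 and Col6a6, at 0.709, 0.834 and 0.913 CPM. Mmp28, chosen after its values were seen, had 9, 6, 9 and 0 counts in controls and 1, 1, 1 and 0 in treated libraries.

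The type I trimer is built of more alpha 1 than alpha 2 chains. The FPKM of Col1a2 was above that of Col1a1 in all 8 libraries, by 1.68 to 4.40 times in controls and 1.89 to 4.62 times in treated libraries. The highest ratios rest on 12 counts of Col1a1 in control 1 and 8 in treated library 3. FPKM also depends on the gene length used, 12426 bases for Col1a2 and 6563 for Col1a1, so these ratios do not measure chain proportions. The FPKM of Col3a1 was above that of Col1a2 in all 8, by 1.48 to 3.14 times. These ratios were chosen after the values were seen.

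The tested genes of the set are long, with a median of 6922 bases against 4269 over all tested genes, and GC-rich, with a median of 55.4% against 49.3%. With the length and GC offset their median log2 fold change was -0.1, against 0.02 over all tested genes.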
